A study of Homo sapiens with 6 samples.

Results

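The 1- and 2-letter simple repeats are tandem runs of a single nucleotide, such as (A)n, or of a dinucleotide, such as (AC)n. They were chosen by name alone, as every listed locus whose repeat name is a unit of 1 or 2 letters in round brackets followed by n. This gave 8307 of the 433837 loci in the deposited tables and 18 of their 5230 repeat names. No measured value enters this rule, but the repeats were chosen with earlier results of these data known. Read counts came from 3 libraries of HEK293T cells, a human embryonic kidney line, that received a chemically modified chimeric antisense oligonucleotide (ASO) against U7 snRNA, and from 3 libraries of the same line that received a control ASO directed at GFP. The U7 ASO was given at 100 nM with Lipofectamine 2000, and the labels give the genotype of these cells as U7 snRNA knockdown and that of the control cells as WT. All 6 libraries were made from total RNA after depletion of ribosomal RNA, and the design text of the series describes each set of 3 as biological replicates.

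Microsatellites of this kind lengthen and shorten by slippage of the copied strand, and most of them lie in introns and between genes, so that in total RNA they are mostly copied as part of longer transcripts. Poly(A) runs mark the ends of Alu and L1 copies, AC is the most common dinucleotide unit in the human genome, and CG is a rare one. In RNA, UG runs are bound by TDP-43, CA runs by hnRNP L and CU-rich runs by PTBP1. U7 snRNA itself is known for its part in forming the 3′ ends of replication-dependent histone mRNAs. The unit in a name is read on 1 strand and from 1 starting base, so (AC)n, (CA)n, (GT)n and (TG)n are 1 kind of duplex, as are (AG)n, (GA)n, (CT)n and (TC)n. The names (TT)n and (CC)n are runs of a single nucleotide written with a longer unit.

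The libraries held 2089822, 2348997 and 2819540 repeat reads with the U7 ASO, against 2025985, 1926892 and 1980793 with the control ASO. The 16 loci named U7 had 10, 4 and 6 reads with the U7 ASO and 10, 6 and 12 with the control ASO, which is too few to check the depletion, and the tables do not show which of these loci is the functional gene. Ribosomal RNA names took 20.7%, 19.4% and 22.2% of the repeat reads with the U7 ASO and 22.3%, 21.0% and 14.8% with the control ASO, so that control replicate 3 stood apart. The tables hold repeat loci and no gene rows, so markers of the cell line were not checked. They give no lengths either, so levels are compared between groups and not between repeats.

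The reads were spread over many sparse loci. (AC)n had the most listed loci, 1434, followed by (GT)n with 1210, (TG)n with 1200, (CA)n with 1037, (T)n with 972 and (A)n with 630. (TC)n had 445, (CT)n 314, (TA)n 243, (AT)n 223, (C)n 153, (AG)n 149, (GA)n 143 and (G)n 80. (TT)n had 29, (GC)n 24, (CG)n 16 and (CC)n 5. Of the 8307 loci, 6407 had 10 or fewer reads over all 6 libraries, and 3032 had 1 or 2. After the count filter 393 loci were tested, 4.73% of those listed, and they held 68.0% of the reads of these repeats.

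The share of the repeat reads that fell in these repeats was lower in every U7 ASO library than in any control library. It was 1.36% (95% Clopper-Pearson interval 1.34 to 1.38), 1.24% (1.22 to 1.25) and 1.13% (1.11 to 1.14) with the U7 ASO, against 1.47% (1.46 to 1.49), 1.45% (1.43 to 1.47) and 1.64% (1.62 to 1.66) with the control ASO. The groups did not overlap, with means of 1.24% ± 0.117 and 1.52% ± 0.102 (SD, n = 3 each). The exact permutation test gave p = 0.1 (two-sided), the smallest p that 3 libraries against 3 allow. These intervals cover counting error only. With ribosomal RNA names left out of the total, the share was 1.57% ± 0.136 with the U7 ASO and 1.89% ± 0.0451 with the control ASO (exact p = 0.1), and with 7SK left out as well it was 2.04% ± 0.117 and 2.53% ± 0.0504 (exact p = 0.1). Reads of the LTR12 and HERV9 repeats, which took between 2.01% and 3.18% of repeat reads with the U7 ASO and between 0.213% and 0.266% with the control ASO, change the total too. Without them the share was 1.27% ± 0.126 with the U7 ASO and 1.52% ± 0.103 with the control ASO (exact p = 0.1).

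A lower share was not particular to short units. Simple repeats with a unit of 3 or more letters took 9.63% ± 1.94 of repeat reads with the U7 ASO and 13.2% ± 1.27 with the control ASO, and the A-rich, G-rich and GA-rich low-complexity tracts took 2.56% ± 0.400 and 3.31% ± 0.190 (SD, n = 3 each, exact p = 0.1 for each). The log2 ratio of the 1- and 2-letter repeats to the longer-unit simple repeats was −2.94 ± 0.154 with the U7 ASO and −3.11 ± 0.212 with the control ASO (exact p = 0.2). Against the low-complexity tracts it was −1.03 ± 0.0960 and −1.12 ± 0.179 (exact p = 0.5). Both ratios overlapped between the groups. In bulk RNA of this kind, fewer cells with a transcript and less of it per cell cannot be told apart.

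Reads were then summed over all loci of a name and tested with edgeR across all 2236 repeat names that passed the filter. A name was called at a Benjamini-Hochberg adjusted p under 0.05. Of the 18 names, 2 fell, (AT)n and (CT)n, and 0 rose. Over all tested names 1.03% were lowered and 1.52% were raised. DESeq2 and limma-voom also called 0 of the 18 names raised, and at an unadjusted p under 0.05 edgeR had 0 raised and 6 lowered. Over all 2236 tested names 155 were raised and 171 lowered at that unadjusted p. The log2 fold change was negative for 15 of 18 names, against 50.6% of all tested names, with a median of −0.31 against −0.01 over all tested names. Of the simple-repeat names with a longer unit 66.6% were negative, with a median of −0.22. The 3 low-complexity names were all negative, with a median of −0.52. The U7 ASO libraries all lay below the control libraries for 7 names, where 10.2% of all tested names did so, and above them for 0, where 9.93% did.

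**Figure D1:**
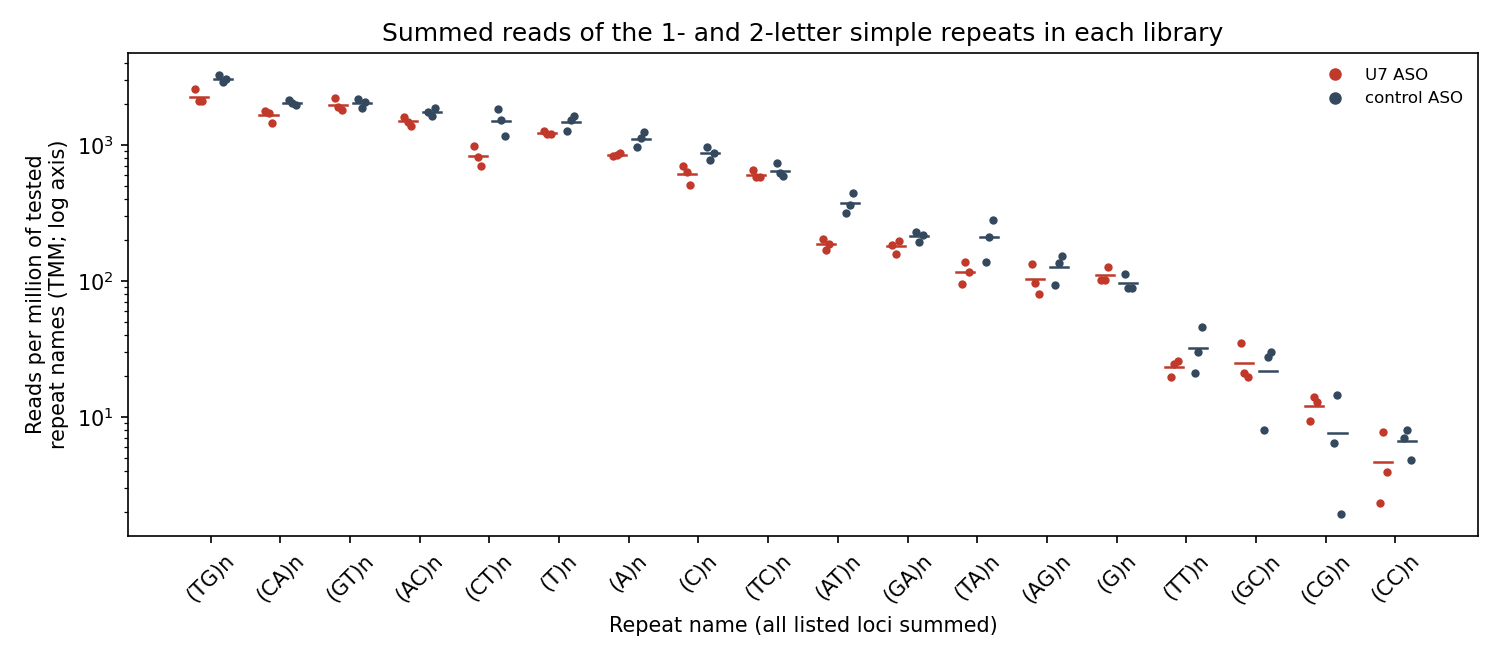
CPM over tested repeat names (TMM scaling, log axis) for each of the 18 names, with the 3 U7 ASO libraries left of the 3 control ASO libraries. Points are libraries and lines are group means, and the groups stand clear of each other for (AT)n and (CT)n, the 2 called names, and for (TG)n, (CA)n, (AC)n, (A)n and (C)n, which were not called.

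(AT)n, an alternating A and T run, had 203, 169 and 188 CPM (edgeR's depth-scaled counts over the tested names) with the U7 ASO, against 317, 363 and 439 CPM with the control ASO. The groups did not overlap, and control replicate 3 was the highest library. The log2 fold change was −1.0 (SE 0.21, adjusted p = 0.00722), so that (AT)n fell by 50.1%. (TA)n, the same run read from its other base, had 94.0, 138 and 116 CPM with the U7 ASO against 137, 211 and 279 CPM with the control ASO. The groups overlapped by 1 library on each side, and (TA)n was not called (log2 fold change −0.85, SE 0.26, adjusted p = 0.11). Merged into 1 class, the AT and TA runs had 296, 307 and 304 CPM with the U7 ASO, a narrow range, against 454, 572 and 719 CPM with the control ASO. This class fell (log2 fold change −0.94, SE 0.20, adjusted p = 0.0101). The (AT)n call was lost without U7 ASO replicate 2, U7 ASO replicate 3 or control replicate 2, and the call of the class without any of these or without control replicate 3, with log2 fold changes from −1.09 to −0.86 for (AT)n and from −1.08 to −0.76 for the class over all alternatives.

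(CT)n, a pyrimidine run on the strand named, had 981, 817 and 703 CPM with the U7 ASO, against 1830, 1508 and 1157 CPM with the control ASO. The strand setting of the counts was not given, so the strand of the RNA is not known for any name. The groups did not overlap and (CT)n fell by 44.4% (log2 fold change −0.85, SE 0.19, adjusted p = 0.0158). The call was lost without U7 ASO replicate 2, U7 ASO replicate 3, control replicate 1 or control replicate 2, with log2 fold changes from −1.0 to −0.66 over all alternatives. (TC)n, the same run in the other frame, had 651, 575 and 576 CPM with the U7 ASO and 730, 616 and 588 CPM with the control ASO, and the groups overlapped (log2 fold change −0.10, SE 0.18, adjusted p = 0.854). The purine-strand names (AG)n and (GA)n had log2 fold changes of −0.31 (SE 0.27) and −0.24 (SE 0.21), and neither was called. All 4 names merged gave −0.53 (SE 0.17, adjusted p = 0.114, normal-approximation 95% interval −0.86 to −0.20). This class had 1944, 1650 and 1559 CPM with the U7 ASO against 2885, 2441 and 2116 CPM with the control ASO.

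The AC and GT runs were the most read of these repeats and none of their 4 names was called. (TG)n had 2582, 2112 and 2090 CPM with the U7 ASO and 3257, 2896 and 3038 CPM with the control ASO (log2 fold change −0.44, SE 0.15, adjusted p = 0.170). (CA)n had 1780, 1699 and 1446 CPM with the U7 ASO and 2148, 2020 and 1959 CPM with the control ASO (log2 fold change −0.32, SE 0.16, adjusted p = 0.375), and (AC)n was at −0.22 on the log2 scale (SE 0.16, adjusted p = 0.558). Every U7 ASO library lay below every control library for these 3 names. (GT)n overlapped, with 2194, 1894 and 1786 CPM with the U7 ASO and 2184, 1866 and 2058 CPM with the control ASO (log2 fold change −0.06, SE 0.16, adjusted p = 0.919), and its sign was positive when library totals were the only scaling. Merged, the 4 names gave −0.27 (SE 0.13, adjusted p = 0.365, normal-approximation 95% interval −0.53 to −0.01). The edgeR test gave this class an unadjusted p of 0.0565, so the interval is narrower than that test implies.

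No run of a single base was called. (A)n had 832, 835 and 865 CPM with the U7 ASO and 960, 1114 and 1240 CPM with the control ASO (log2 fold change −0.39, SE 0.17, adjusted p = 0.286). (T)n overlapped (log2 fold change −0.27, SE 0.16, adjusted p = 0.493), and so did (TT)n, with 42, 60 and 73 reads with the U7 ASO and 39, 56 and 95 reads with the control ASO. (C)n had 693, 629 and 505 CPM with the U7 ASO against 967, 778 and 874 CPM with the control ASO (log2 fold change −0.52, SE 0.18, adjusted p = 0.181), with no overlap between the groups. (G)n had 102, 102 and 127 CPM with the U7 ASO and 113, 89.1 and 88.3 CPM with the control ASO (log2 fold change 0.19, SE 0.25, adjusted p = 0.794). The A/T class gave −0.32 (SE 0.16, adjusted p = 0.363) and the C/G class −0.43 (SE 0.18, adjusted p = 0.253).

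The CG and GC runs were rare and had wide errors. (CG)n had 20, 34 and 36 reads with the U7 ASO and 12, 27 and 4 reads with the control ASO (log2 fold change 0.67, SE 0.73, adjusted p = 0.754). (GC)n had 74, 51 and 55 reads with the U7 ASO and 15, 51 and 62 reads with the control ASO (log2 fold change 0.20, SE 0.49, adjusted p = 0.905). (CC)n had 5, 19 and 11 reads with the U7 ASO and 13, 15 and 10 reads with the control ASO (log2 fold change −0.48, SE 0.86). A difference was not detectable at this depth for any of these 3 names. Of the 6 classes, 1 was lowered, AT/TA, where 0.944% of the features in that fit were lowered and 1.53% raised. In 5 of the 6 classes the U7 ASO libraries all lay below the control libraries, where 10.1% of all features did, and CG/GC was the exception.

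Sorted by the bases of the unit, the 5 names made of A and T only were all negative, with a median log2 fold change of −0.46, and the 8 names that mix the A/T and C/G pairs were all negative, with a median of −0.28. The 5 names made of C and G only had 2 negative values and a median of 0.19. Longer units gave the same order of medians, −0.42 over 36 tested names of A and T only, −0.22 over 1068 mixed names and −0.04 over 77 names of C and G only. The positive C and G names, (G)n, (CG)n and (GC)n, had few reads, while (C)n was at −0.52. The merged classes did not keep this order. C/G was at −0.43, below A/T at −0.32 and the AC and GT runs at −0.27, while AT/TA was at −0.94, the AG and CT runs at −0.53 and CG/GC at 0.34. The log2 ratio of AT and TA runs to longer-unit repeats of A and T only was −1.41, −1.32 and −1.26 with the U7 ASO, against −0.81, −0.82 and −0.76 with the control ASO. Their ratio to all other 1- and 2-letter repeats was −5.30 ± 0.147 with the U7 ASO and −4.71 ± 0.364 with the control ASO. The groups did not overlap in either ratio (exact p = 0.1 for each, adjusted p = 0.2 over 8 ratios), and both ratios were chosen after the values of the names had been seen. Without the leading loci the ratio to longer-unit repeats of A and T only was −0.55 ± 0.0438 with the U7 ASO and −0.11 ± 0.193 with the control ASO, still without overlap (exact p = 0.1, adjusted p = 0.8). The ratio to all other 1- and 2-letter repeats then overlapped, with −5.32 ± 0.135 with the U7 ASO and −4.89 ± 0.432 with the control ASO (exact p = 0.3, adjusted p = 1).

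Partner names on opposite strands were compared as ratios within a library. The log2 ratio of (AC)n and (CA)n to (GT)n and (TG)n was −0.43 ± 0.0823 with the U7 ASO and −0.43 ± 0.0514 with the control ASO (exact p = 1, adjusted p = 1). That of (AG)n and (GA)n to (CT)n and (TC)n was −2.34 ± 0.126 and −2.64 ± 0.378, with overlap (exact p = 0.3, adjusted p = 0.4). A runs to T runs gave −0.56 ± 0.0698 with the U7 ASO and −0.44 ± 0.0280 with the control ASO, and C runs to G runs gave 2.47 ± 0.411 and 3.19 ± 0.111, neither with overlap (exact p = 0.1, adjusted p = 0.2). Without the leading loci, the A to T ratio was −0.73 ± 0.123 with the U7 ASO and −0.73 ± 0.0873 with the control ASO (exact p = 1), and the C to G ratio 1.69 ± 0.195 and 1.86 ± 0.212 (exact p = 0.6).

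A single locus can carry a name. The leading locus of each name, the one with the most reads over all 6 libraries, was therefore set apart. The leading locus of (C)n, (C)n_dup28_5014046, held 56.5% ± 6.0 of the reads of its name with the U7 ASO and 67.9% ± 3.76 with the control ASO. That of (CT)n, (CT)n_dup15_3714774, held 37.8% ± 4.13 and 48.6% ± 5.80, and that of (AT)n, (AT)n_dup40_3715134, held 21.9% ± 2.56 with the U7 ASO and 37.9% ± 7.07 with the control ASO. That of (GT)n, (GT)n_dup268_5231558, held 10.6% ± 0.707 and 8.42% ± 0.873 (SD, n = 3 each). These were the 4 names of 18 whose groups did not overlap (exact p = 0.1, adjusted p = 0.45 over the 18 names). This share was not computed for other repeat names, so no value over all names stands beside that count. Of the difference in CPM between the group means, the leading locus made up 52.7% for (AT)n, 64.1% for (CT)n and 93.7% for (C)n.

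**Figure D2:**
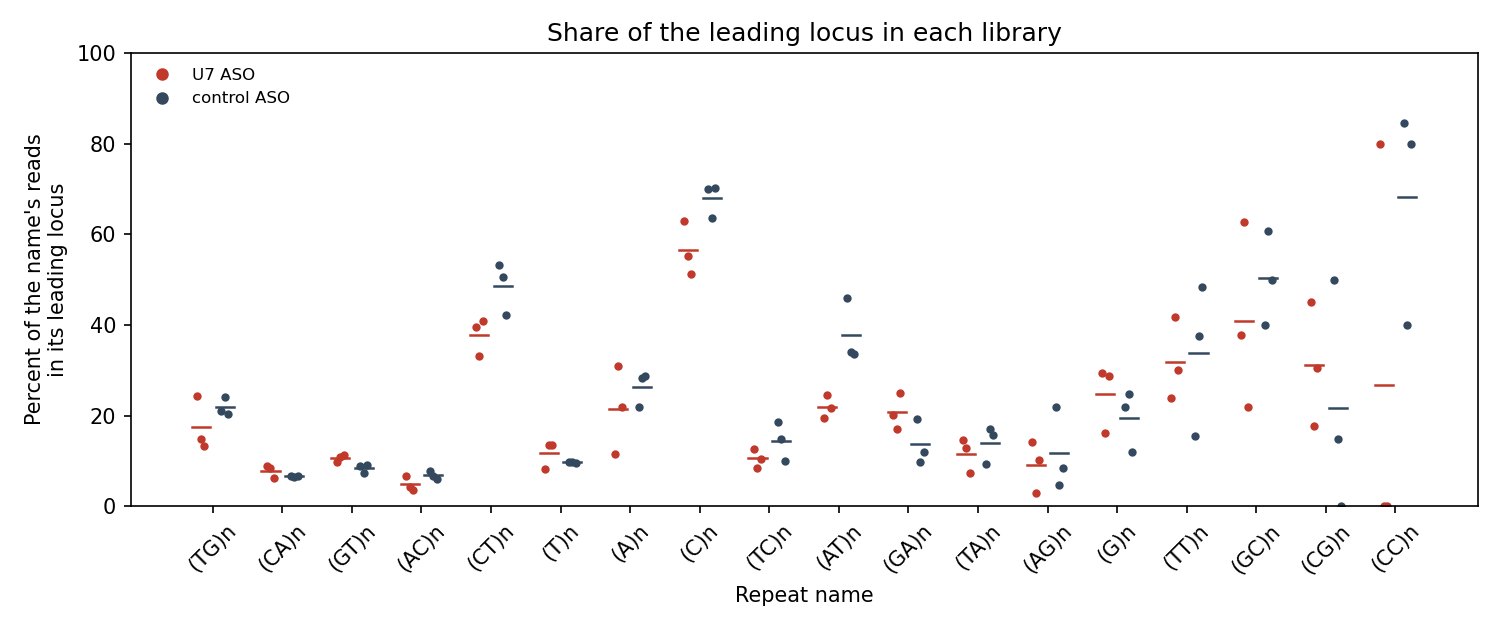
Percent of the reads of each name that fell in its leading locus, in each library, with U7 ASO libraries left of control ASO libraries and lines at the group means. The share is lower in every U7 ASO library for (C)n, (CT)n and (AT)n, by means of 56.5% against 67.9%, 37.8% against 48.6% and 21.9% against 37.9%, and it rests on few reads in (CG)n, (GC)n and (CC)n.

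With the leading locus removed from every name of the table, 1541 names were tested, of which 1.10% were raised and 0.779% lowered. Of the 17 names tested (all but (CC)n), 1 fell and 0 rose (9 lowered and 0 raised at an unadjusted p under 0.05). Over all 1541 names 102 were lowered and 74 raised at that unadjusted p. The name that fell was (TA)n, with 188, 250 and 220 CPM with the U7 ASO against 310, 408 and 521 CPM with the control ASO (log2 fold change −0.91, SE 0.22, adjusted p = 0.0498). This call sat at the threshold and was lost under 11 of 15 alternatives, with adjusted p-values between 0.00397 and 0.268. (AT)n was at −0.79 on the log2 scale (SE 0.20, adjusted p = 0.0722) and (CT)n at −0.67 (SE 0.19, adjusted p = 0.123). Neither passed, and both kept their direction under every alternative run, from −0.93 to −0.63 and from −0.83 to −0.48. (C)n was at −0.21 (SE 0.16).

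Without the leading locus 15 of 17 names were negative, against 51.3% of all names in that fit, with a median of −0.40 against −0.01, and the U7 ASO libraries all lay below the control libraries for 10 names, where 8.11% of all names did, and above them for 0, where 8.89% did. These 10 names included (TA)n, (GA)n, (T)n and (TT)n, whose groups overlapped with all loci counted, and left out (C)n. Each fit with loci removed had its own library totals and TMM scaling. Its values are therefore not on the scale of the fit with all loci, and the part of these changes that comes from the scaling was not tested. Of the longer-unit simple-repeat names without their leading loci 70.0% were negative, with a median of −0.27. The 3 low-complexity names were all negative, with a median of −0.48. With the 10 leading loci of every name removed, 0 of 14 tested names were called by edgeR, and (AT)n was at −0.83 on the log2 scale (SE 0.21, adjusted p = 0.105), (TA)n at −0.81 (SE 0.24, adjusted p = 0.163) and (CT)n at −0.60 (SE 0.17, adjusted p = 0.145).

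**Figure D3:**
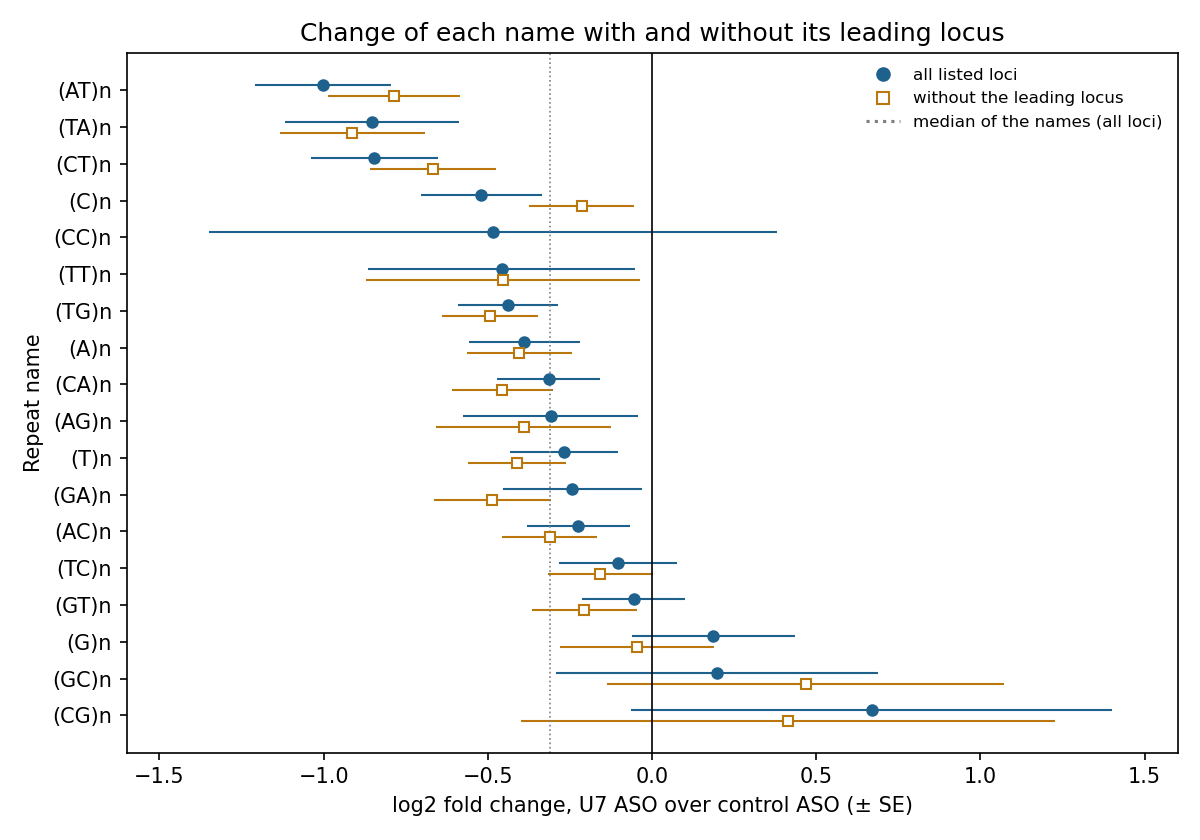
Log2 fold change, U7 ASO over control ASO, with its standard error, for each name with all loci (circles) and without its leading locus (squares). Circles and squares come from separate fits, each with its own library totals and TMM scaling, so they are not on the same scale. (AT)n, (CT)n and (C)n lie nearer 0 without their leading loci, at −0.79, −0.67 and −0.21 against −1.0, −0.85 and −0.52. Other names lie further from 0, such as (AC)n at −0.31 against −0.22 and (TG)n at −0.49 against −0.44. How much of any shift comes from the leading locus and how much from the scaling was not tested. The dotted line marks the median of the 18 names with all loci, −0.31.

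At single loci, 3 of the 393 tested rose and 3 fell, 0.763% each way. Over all 14380 tested loci 4.49% were raised and 0.473% lowered. With upper-quartile scaling 3 rose and 6 fell, and that scaling moved the median of all loci by −0.15. Among the 393 loci the median log2 fold change was −0.16, against 0.06 over all tested loci, and the gap between the medians was −0.22 under both scalings. Negative values made up 57.3% of the 393 loci and 47.3% of all loci. They made up 55.2% of the tested loci of longer-unit simple repeats (median −0.08) and 53.3% of those of low-complexity tracts (median −0.07). The U7 ASO libraries all lay above the control libraries at 23 of the 393 loci, where 12.2% of all loci did so, and below them at 56, where 8.36% did. At an unadjusted p under 0.05, 8 were higher and 26 lower with the U7 ASO. Over all 14380 tested loci 1180 were higher and 588 lower at that p.

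**Figure D4:**
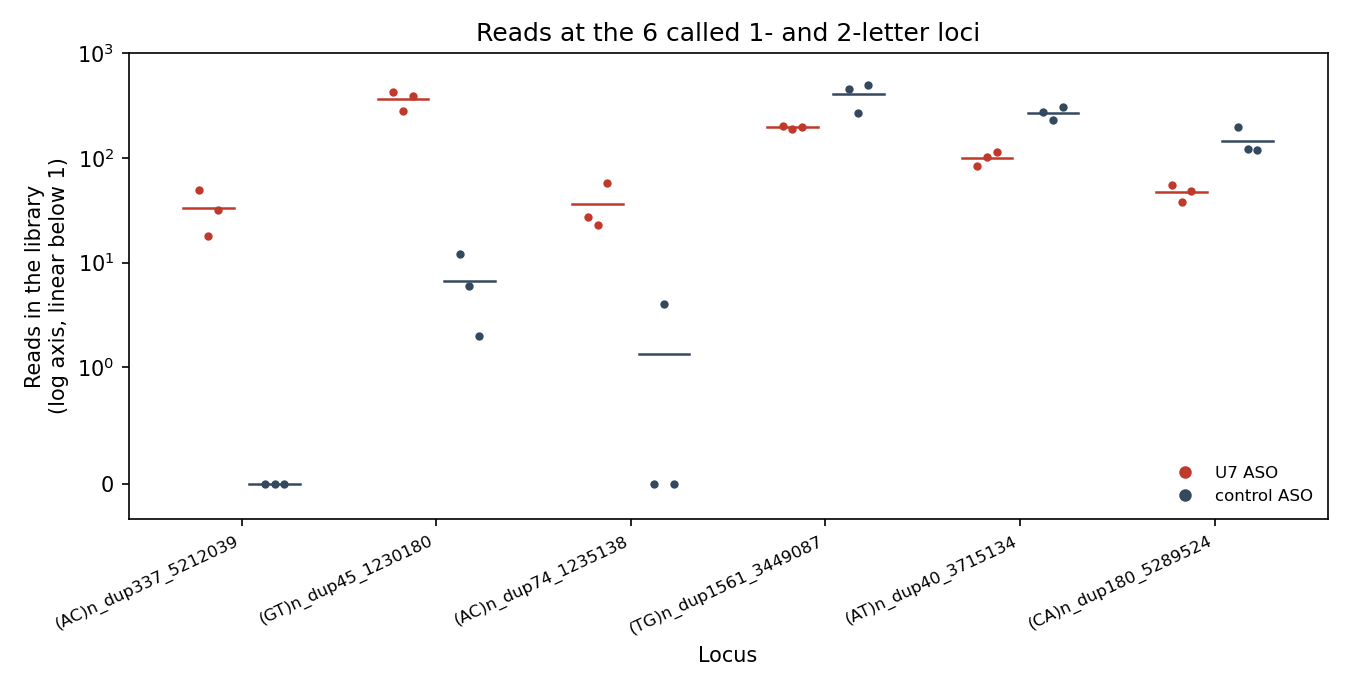
Reads per library at the 6 called loci, on a log axis that is linear below 1, with the 3 U7 ASO libraries left of the 3 control ASO libraries and lines at the group means. The 3 raised loci have between 0 and 12 reads in a control library, and the 3 lowered loci have reads in every library.

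(GT)n_dup45_1230180 showed the most reads among the raised loci, with 429, 280 and 391 reads with the U7 ASO against 12, 6 and 2 with the control ASO. The groups were far apart. The log2 fold change was 5.63 (SE 0.50, adjusted p = 1.15e-05), and the call held under all 14 alternatives, with a value of 6.34 when control replicate 1 was left out. The number that ends a locus name runs along the repeat annotation and is the only position the tables hold. The next listed locus, (TCATCT)n_1230181, had 152, 92 and 113 reads with the U7 ASO and 167, 102 and 110 with the control ASO and was not called (log2 fold change −0.20, SE 0.35). MIRb_dup535_1230191, a copy of an old short interspersed element, lay 11 numbers away and was raised, with 52, 38 and 50 reads with the U7 ASO and 0 in each control library (adjusted p = 0.000721). That copy passed the count filter only through its U7 ASO reads. LTR12C_dup7_1230192, 1 number further on, is a long terminal repeat of the HERV9 retroviruses. It had 7, 9 and 35 reads with the U7 ASO and 0 in each control library, and was not tested because it did not pass the count filter.

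(AC)n_dup337_5212039 had 49, 18 and 32 reads with the U7 ASO and 0 in each control library. Against a chosen floor of 3 reads over the control group this is 30.3-fold higher, which is not a strict bound (adjusted p = 0.00409). With 0 control reads the locus passed the count filter only through its U7 ASO reads, so the test is not separate support for the rise. The call was lost with limma-voom, without U7 ASO replicate 1 and without U7 ASO replicate 3. The locus directly followed LTR12C_dup27_5212038, which was raised with 236, 107 and 176 reads with the U7 ASO and 0 in each control library. That LTR12C copy passed the filter in the same way. (AC)n_dup74_1235138 had 27, 23 and 58 reads with the U7 ASO and 0, 4 and 0 with the control ASO (log2 fold change 4.46, SE 1.13, adjusted p = 0.0330). It too passed the filter only through its U7 ASO reads. It was called under 6 of 14 alternatives, with adjusted p-values up to 0.401. With each library left out the log2 fold change ran from 3.85 to 8.11, the highest without control replicate 2, the 1 control library with a read here, where the fitted value is no bound. Its nearest listed LTR12 or HERV9 locus lay 186 numbers away.

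Of the 645 raised loci of the whole table, 328 were LTR12 or HERV9 loci. Within 20 running numbers of one of these lay 2 of the 393 tested 1- and 2-letter loci (0.509%), of which 1 was raised, (AC)n_dup337_5212039. The other, (AC)n_dup421_4689864, was at 0.20 on the log2 scale (SE 0.39) and was not called. Among all 13917 tested loci outside LTR12 and HERV9, 173 lay as near (1.24%), and 122 of these were raised. Within 100 numbers the counts were 7 of 393 with 1 raised, against 364 of 13917 with 143 raised. Loci without control reads passed the count filter only through their U7 ASO reads, which inflates the raised part of these counts. (GT)n_dup45_1230180 is not among the 2 loci within 20 numbers, because LTR12C_dup7_1230192, 12 numbers from it, was not tested.

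(AT)n_dup40_3715134, the leading locus of (AT)n, fell, with 84, 101 and 114 reads with the U7 ASO against 273, 231 and 305 with the control ASO. The groups did not overlap, and the call held under all 14 alternatives (log2 fold change −1.56, SE 0.29, adjusted p = 0.00409). Its 4 tested neighbours within 20 running numbers had log2 fold changes from −0.56 to 0.22 and none was called. The leading locus of (CT)n lay 360 running numbers before it. That locus, (CT)n_dup15_3714774, had 826, 658 and 805 reads with the U7 ASO against 1820, 1418 and 1010 with the control ASO, and just missed the threshold (log2 fold change −1.02, SE 0.28, adjusted p = 0.0522). It was called under 7 of 14 alternatives, with adjusted p-values from 1.25e-08 to 0.315.

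(CA)n_dup180_5289524 fell, with 55, 38 and 48 reads with the U7 ASO against 195, 122 and 118 with the control ASO (log2 fold change −1.74, SE 0.37, adjusted p = 0.0102). It was called under 9 of 14 alternatives, and its 3 tested neighbours were not called. (TG)n_dup1561_3449087 fell, with 203, 190 and 195 reads with the U7 ASO against 454, 265 and 493 with the control ASO (log2 fold change −1.15, SE 0.30, adjusted p = 0.0366), and was called under 8 of 14 alternatives. Its 4 tested neighbours, which lie before it, were all negative, from −1.69 to −0.71. The 2 of them that were lowered are copies of the L2 long interspersed element. L2c_dup5441_3449080 had 61, 54 and 48 reads with the U7 ASO against 151, 124 and 122 with the control ASO, and L2c_dup5443_3449083 had 152, 116 and 116 against 223, 232 and 372. The tables do not say whether these loci lie on 1 transcript.

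**Figure D5:**
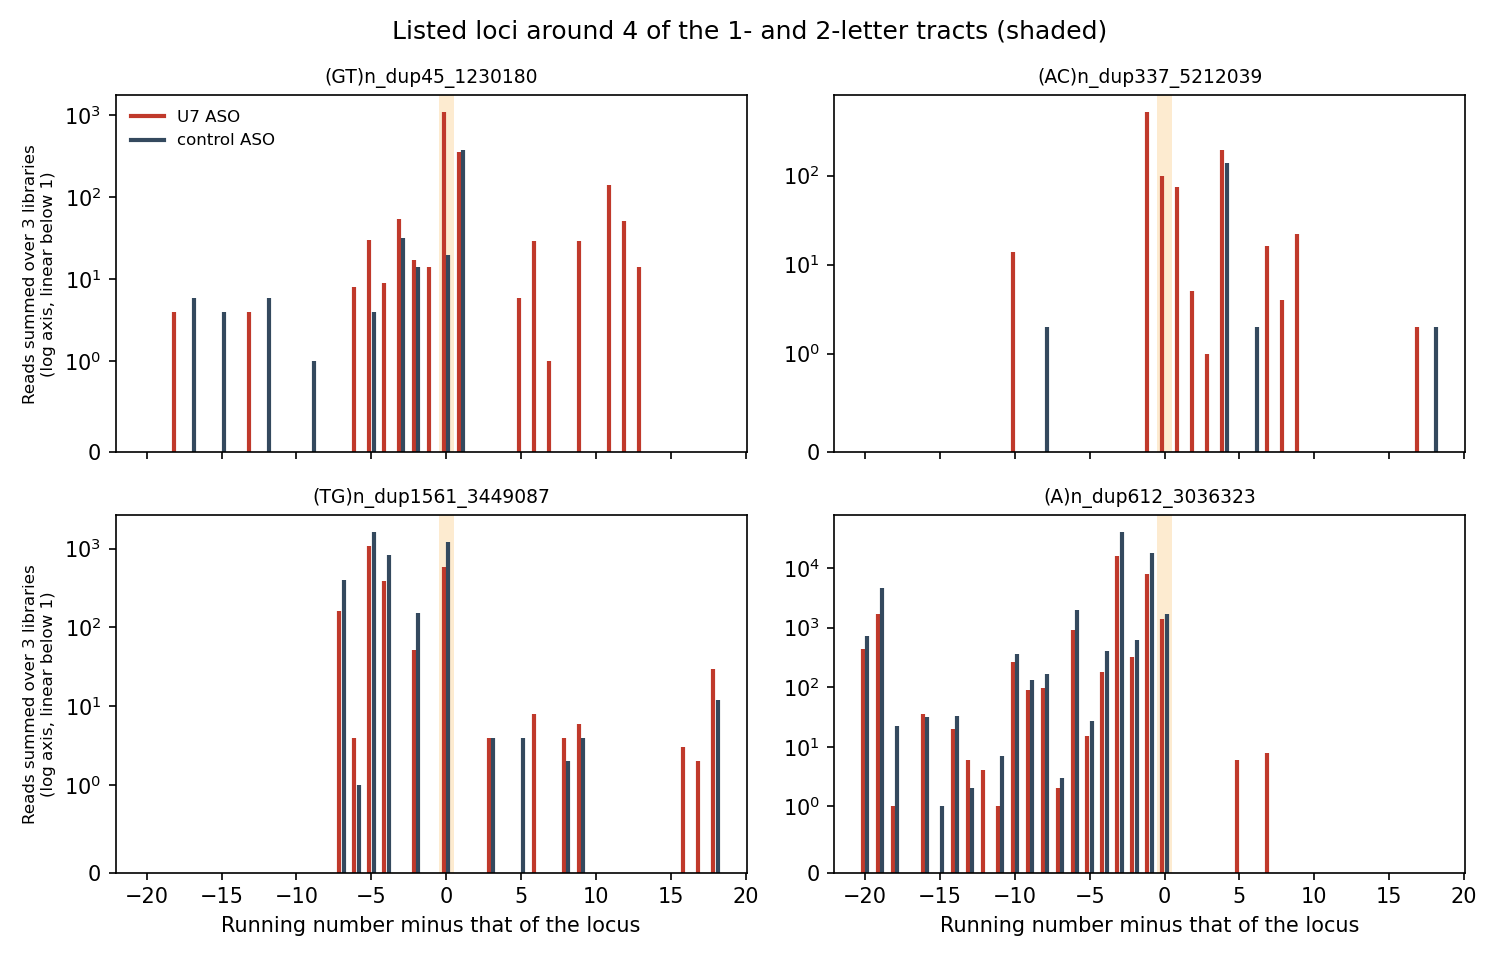
Reads summed over the 3 U7 ASO libraries (left bar of each pair) and the 3 control ASO libraries (right bar) at listed loci within 20 running numbers of 4 tracts, on a log axis that is linear below 1. Around (GT)n_dup45_1230180 and (AC)n_dup337_5212039 several neighbours have reads with the U7 ASO only, while the loci before (TG)n_dup1561_3449087 and (A)n_dup612_3036323 mostly have fewer reads with the U7 ASO. Sparse neighbours with U7 ASO reads only also lie around (AG)n_dup150_574715, which was not called and is not drawn. The U7 ASO libraries held more repeat reads than the control libraries.

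Of the 18 leading loci, 16 were tested (all but those of (CC)n and (CG)n). 1 was lowered, that of (AT)n, and 0 were raised by edgeR (3 lowered and 0 raised at an unadjusted p under 0.05), and 11 of the 16 were negative. Over all 14380 tested loci 588 were lowered and 1180 raised at that unadjusted p. Of all these loci 0.473% were called lowered, 4.49% were called raised and 47.3% were negative. (A)n_dup612_3036323, which leads (A)n, had 205, 630 and 532 reads with the U7 ASO and 391, 586 and 739 with the control ASO and was not called (log2 fold change −0.46, SE 0.37, adjusted p = 0.791). It lay in a run of loci with 11 tested neighbours, of which 4 were lowered and 10 were negative. The 4 were A-rich_dup1134_3036304, L1MC3_dup316_3036317, (GCAGAGG)n_3036320 and G-rich_dup210_3036322. (GCAGAGG)n_3036320, the most read of them, had 4209, 5578 and 5817 reads with the U7 ASO against 12724, 12216 and 14915 with the control ASO (log2 fold change −1.48, SE 0.21, adjusted p = 0.000574).

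The other leading loci with many reads did not pass. (TG)n_dup412_2739340 had 1340, 759 and 785 reads with the U7 ASO and 1271, 1302 and 1282 with the control ASO (log2 fold change −0.53, SE 0.29, adjusted p = 0.548), with U7 ASO replicate 1 inside the control range. (C)n_dup28_5014046 had 928, 845 and 726 reads with the U7 ASO and 1264, 922 and 1272 with the control ASO (log2 fold change −0.58, SE 0.26, adjusted p = 0.376). (GT)n_dup268_5231558 was the 1 tested leading locus that lay higher in every U7 ASO library, with 459, 500 and 562 reads against 361, 258 and 384 with the control ASO (log2 fold change 0.48, SE 0.26, adjusted p = 0.547). (T)n_dup1031_2269675 had 221, 397 and 451 reads with the U7 ASO and 230, 277 and 317 with the control ASO (log2 fold change 0.24, SE 0.30, adjusted p = 0.911).

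The number of loci with any read was compared at equal depth. At an equal total of 1926892 repeat reads, the expected number of 1- and 2-letter loci with a read was 2671 ± 197 with the U7 ASO and 2433 ± 272 with the control ASO (exact p = 0.3), and the groups overlapped. (GT)n had 402 ± 17 loci with a read with the U7 ASO and 348 ± 39.4 with the control ASO, (GA)n 50.1 ± 3.66 and 41.4 ± 2.60, and (GC)n 10.1 ± 2.11 and 5.32 ± 1.55, each without overlap (exact p = 0.1, adjusted p = 0.6 over the 18 names). (AT)n had 61.9 ± 8.14 loci with the U7 ASO and 65.6 ± 7.40 with the control ASO (exact p = 0.6), and (CT)n 104 ± 3.90 and 104 ± 12.3 (exact p = 1). The difference between the group means depended on single libraries. Over all 1- and 2-letter loci it was 239, against 87.4 with control replicate 1 left out and 154 with U7 ASO replicate 2 left out, and for (GT)n it was 53.8, against 31.3 without control replicate 1. Counting loci with at least 2 reads, it was 98.6 over all, 29.8 for (GT)n and 3.08 for (GC)n, and the exact p was 0.2 for both names. (AT)n and (CT)n fell in reads, and a difference in the number of their loci with a read was not detectable.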

How the data were processed

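The deposited tables, 1 per library, hold the authors' read counts, each row a repeat locus named by its repeat, a copy number and a running number. The submitters' processing notes name the GRCh38 build, featureCounts 1.5.0-p1 (Subread), STAR 2.5.3a and FastQC 0.11.5. Not given in the sources used here were the strand setting, the repeat annotation and the handling of pairs and multi-mapping reads, so reads of similar copies, opposite strands and mates may be mixed. Groups and replicate numbers came from the titles, and the dose of the control ASO was not stated apart.

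The deposited counts were tested with edgeR 4.0.16 in R 4.3.3 (quasi-likelihood, two-sided, TMM, filterByExpr with a minimum count of 10 and total of 15, Benjamini-Hochberg over all features), at loci, names, names without the leading locus and unit classes. CPM is edgeR's, after TMM. Shares, ratios and numbers of loci used exact permutation tests in SciPy 1.17.1. Alternatives used DESeq2 1.42.0, limma 3.58.1, other scalings and filters, a replicate block and each library left out. Named were all 18 names, their leading loci, every called locus and tested neighbours within 20 running numbers. The code was tested on simulated data. The repeats and lists were chosen with earlier results of these data known.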

Additional observations from a re-analysis of the deposited data

How the results depend on the processing

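The labels give same-numbered libraries nothing in common but the number, and they were not treated as pairs. The correlations of their deviations over repeat names were 0.28, −0.05 and 0.24. Those of differently numbered libraries ran from −0.32 to 0.16. With so few libraries these values cannot decide whether the numbers mark pairs. With the replicate block, 6 loci, 5 names, 5 names without the leading locus and 2 unit classes were lowered, against 3, 2, 1 and 1 without it. Lowered loci numbered 7 with DESeq2, 7 with limma-voom and 6 with upper-quartile scaling, and raised loci 1 with limma-voom. Names lowered without the leading locus numbered 4 with DESeq2, 3 with no count filter and 0 with RLE, upper-quartile or library-total scaling, limma-voom, a minimum count of 5 or the 10 leading loci removed. Leaving out 1 library at a time gave 1 to 3 raised and 1 to 3 lowered loci, 0 to 3 lowered names, 0 to 4 without the leading locus and 0 to 2 lowered unit classes. Leaving out a library leaves fewer samples to test, and the cause of the other changes was not tested.

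The values below changed sign; the cause was not tested. Without the leading loci the differences in log2 ratio, U7 ASO minus control ASO, were −0.031 for (AC)n and (CA)n to (GT)n and (TG)n, −0.024 for (AG)n and (GA)n to (CT)n and (TC)n (0.30 with all loci), and −0.034 for the 1- and 2-letter to longer-unit repeats. The first of these ratios ran from −0.045 to 0.033 with each library left out. Log2 fold changes of names with each library left out ran from −0.18 to 0.50 for (GC)n, −0.14 to 0.017 for (GT)n (0.00098 with library totals) and −0.16 to 0.0084 for (TC)n, and without the leading locus from −0.012 to 1.59 for (CG)n and −0.12 to 0.12 for (G)n (0.15 with the 10 leading loci removed). Those of loci ran from −0.96 to 0.22 for (AG)n_dup150_574715, −0.92 to 0.27 for (TT)n_dup5_4950173 and −0.45 to 0.38 for (GC)n_dup5_4543837, which was 0.014 with DESeq2, 0.013 with RLE scaling, 0.12 with limma-voom and 0.10 with the replicate block. The (GT)n share difference was −0.072 percentage points over its 10 leading loci, against 2.20 for its leading locus alone. No called value turned. Depth limits single loci: 6407 of 8307 had 10 or fewer reads.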

Other observations

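The loci in this paragraph were picked after their values had been seen, and edgeR called none of them. (GT)n_dup131_2444110 had 11, 13 and 18 reads with the U7 ASO and 0 in each control library, 12.8-fold higher against a chosen floor of 3 reads over the control group (adjusted p = 0.131). This locus passed the count filter only through its U7 ASO reads. (TC)n_dup551_2418790 had 68, 60 and 76 reads with the U7 ASO and 12, 31 and 17 with the control ASO (log2 fold change 1.62, SE 0.50, adjusted p = 0.10). (CA)n_dup453_4560912 had 0, 4 and 20 reads with the U7 ASO and 61, 35 and 48 with the control ASO (log2 fold change −2.75, SE 0.88, adjusted p = 0.119). The second most read (AT)n locus, (AT)n_dup228_4664048, had 29, 15 and 20 reads with the U7 ASO and 37, 63 and 119 with the control ASO (log2 fold change −1.87, SE 0.53, adjusted p = 0.0632). In each of the 4 the groups did not overlap.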
